A study of Mus musculus with 52 samples.

Results

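The promoters of 10 ciliary transition zone genes were examined among the 20633 gene promoters measured by calibrated ATAC-seq in mouse embryonic stem cells (mESCs). The genes were Tmem231, Tmem216, Tmem67, Tmem237, B9d1, B9d2, Mks1, Tctn1, Tctn2 and Cc2d2a, and each had exactly 1 promoter interval, found by matching its RefSeq identifier to the gene symbol. The set was chosen by the measured fall of the Tmem231 promoter in 1 of the 4 cell lines, so all values of these genes from that line are given as a description and were not tested.

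Primary cilia are single antenna-like projections that most vertebrate cells can build. The transition zone lies at the base of the cilium, where protein complexes link the microtubules to the membrane and act as a gate for proteins moving in and out. Mutations of its MKS module, to which the 10 genes belong, cause Meckel and Joubert syndromes, and the gate is needed for Hedgehog signalling. The genes are transcribed in many cell types, and RFX factors, which bind the X-box, are the best known activators of ciliary genes.

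ATAC-seq uses the Tn5 transposase to cut open chromatin, so that the number of reads at a promoter reflects its accessibility. Fixed numbers of Drosophila SG4 cells had been mixed with the mESCs, and mouse reads were divided by a size factor from the fly reads. The resulting calibrated reads per promoter are the level reported throughout. Each of the 4 lines was compared before and after 96 h with 800 nM 4-hydroxytamoxifen, which activates a Cre recombinase fused to the oestrogen receptor and expressed from the Rosa26 locus.

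In Kdm2a/b-JmjC fl/fl cells (3 untreated and 3 treated libraries), tamoxifen removed the exons encoding the JmjC demethylase domain of both Kdm2a and Kdm2b. The long forms of these proteins were lost, and short forms that carry the CpG-binding ZF-CxxC domain remained. In Kdm2a/b-CXXC fl/fl cells (4 and 4 libraries) the ZF-CxxC exon of both genes was removed. Only the Kdm2a exon was removed in Kdm2a-CXXC fl/fl cells (3 and 3 libraries), and only that of Kdm2b in Kdm2b-CXXC fl/fl cells (3 and 3 libraries). Untreated cells of every line carried the floxed alleles and the recombinase. The JmjC line was derived from mice with these alleles. The Kdm2a-CXXC and Kdm2a/b-CXXC lines came from isolated targeted clones, the latter made in Kdm2b-CXXC fl/fl cells, so line and clone cannot be told apart for these. No tamoxifen-treated line without floxed alleles was analysed here.

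The 26 libraries held 1.49 to 3.03 M promoter reads, and the median promoter had 58 to 108 of them. Libraries of 1 line correlated at r = 0.936 to 0.964 across promoters. In the Kdm2b-CXXC line, replicate 1 stood apart in both groups. Its calibrated total was 2.96 M untreated and 3.19 M treated, against 1.75 to 2.12 M in the other 4 libraries. It had the highest value of its group for 10 of 10 transition zone promoters in both groups. The 9 promoters of mESC marker genes had a median percentile of 55.8 among all promoters, and 5 of them lay above percentile 50. They ran from 18.4 at an Esrrb promoter to 90.4 at Zfp42. The 8 promoters of liver, muscle, lymphoid and other markers had a median percentile of 14.5 and reached 36.8 at Gfap, so the ranges of the lists overlapped.

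The promoter intervals were 400 bases long. For each of the 10 genes the start of the matched RefSeq transcript lay inside its interval, at most 28 bases from the centre. Tmem237 and B9d2 also have curated transcripts with an exon that reaches upstream past the interval. Sequences and annotation are from RefSeq on GRCm38.p6, the same assembly as mm10. The Tmem231 interval is chr8:111933592-111933991, on the minus strand, and covers the first exon with the start codon. The 150 bases before its start (chr8:111933814-111933963) are shown first because this is the promoter that fell. They carry 4 CpG dinucleotides, and 46 of the bases lie in annotated repeats. The windows before the starts of Tctn2 (chr5:124598599-124598748) and Cc2d2a (chr5:43662229-43662378), both on the plus strand, are shown as the promoter with the most CCAAT boxes and the promoter with the lowest accessibility. Capitals mark GTTGCC, 1 arm of an X-box, and CCAAT or its complement ATTGG. The Cc2d2a window holds none of the motifs searched.
Tmem231: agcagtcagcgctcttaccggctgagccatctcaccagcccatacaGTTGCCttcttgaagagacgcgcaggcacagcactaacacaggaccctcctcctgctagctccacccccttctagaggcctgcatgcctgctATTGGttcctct
Tctn2: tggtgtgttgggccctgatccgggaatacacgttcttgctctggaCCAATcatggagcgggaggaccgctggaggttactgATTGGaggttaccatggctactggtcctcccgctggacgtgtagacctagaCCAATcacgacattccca
Cc2d2a: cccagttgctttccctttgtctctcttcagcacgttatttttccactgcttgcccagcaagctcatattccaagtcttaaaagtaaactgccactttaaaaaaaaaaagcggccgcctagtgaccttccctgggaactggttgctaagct

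A full X-box pairs 2 arms as an inverted repeat, so that 1 arm read on the opposite strand gives the other. The letters searched were GTTNCC and GGNAAC with 0 to 3 bases between them, and the pattern reads the same on both strands. The pair occurred in 2 of the 10 intervals, Mks1 and Tctn1, against 0.95% of 20630 promoter intervals of the same length. It also occurred in 6 of 79 promoters of other ciliary genes, those of Ahi1, Tctn3, Bbs7, Bbip1, Ift57 and Ttc26. The pair of Mks1 lies 24 to 11 bases before the start. The pair of Tctn1 lies in the first exon, 36 to 49 bases after the first base. Both are shown with 8 flanking bases on each side and the 14-base pair in capitals.
Mks1 (chr11:87853183-87853212, plus strand): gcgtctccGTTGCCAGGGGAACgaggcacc
Tctn1 (chr5:122264403-122264432, minus strand): ctgtgactGTTGCCCGGGCAACagacgggc

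The single arm GTTGCC, which can also be part of a pair, was found on either strand in 5 of the 10 intervals, those of Tmem231, B9d1, Mks1, Tctn1 and Tctn2, against 16.2% of all intervals. Tmem231 and Tctn1 carried 2 copies each. In Tmem231 they lay 104 bases before the start and 11 bases after it. CCAAT boxes occurred in 5 of 10 intervals against 40% of all, and Tctn2 alone had 5 of them, the others having at most 2. GC boxes (GGGCGG) occurred in 6 of 10 against 56.3% and the ETS motif CCGGAAG in Tmem231 and Tmem216 against 14.1%. The E2F motif TTTCGCGC occurred in 0 of 10, against 0.538% of all intervals. These are matches of letters on both strands and not bound sites.

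Base composition divided the set. An interval was called CpG-rich when its GC content reached 0.5 and its observed over expected CpG ratio 0.6. This held for 8 of the 10 intervals, against 54.6% of all. Tmem231 had a GC content of 64.75%, 30 CpG dinucleotides and a ratio of 0.736. The ratios of the other 7 CpG-rich promoters ran from 0.657 at B9d2 to 0.876 at Tmem67. Tctn2, with a ratio of 0.58, just missed the limit. Cc2d2a had a GC content of 47.5%, 6 CpG dinucleotides and a ratio of 0.275, at percentile 22.2 of all promoters. Annotated repeats covered 18.5% of the Tmem231, 18.2% of the Cc2d2a and 23% of the Tmem67 interval and none of the other 7.

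**Figure D1:**
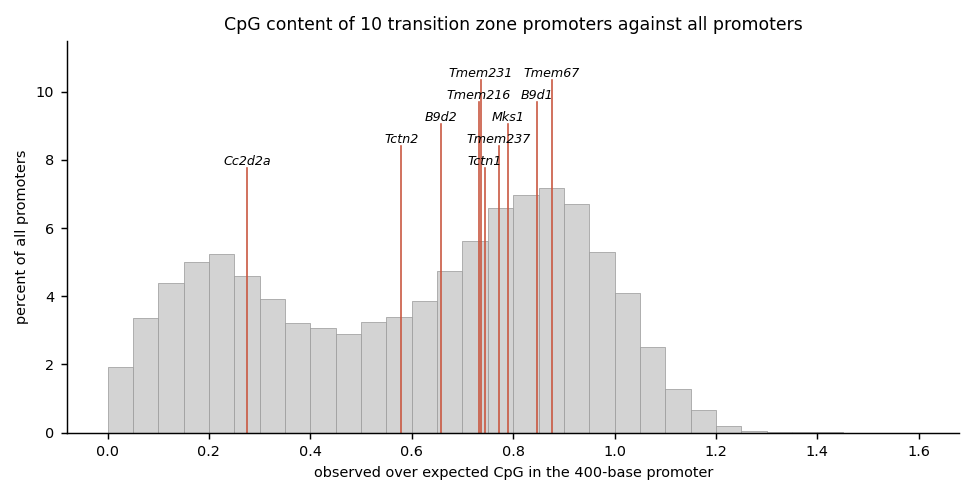
Observed over expected CpG ratio of the 400-base promoter interval (x axis) for all promoters (grey bars, percent of promoters per bin of 0.05) and for each transition zone gene (red lines, labelled). Cc2d2a at 0.275 sits among CpG-poor promoters and the others lie at 0.58 or above.

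The ends of the order of the levels were the same in the untreated cells of every line, while the middle varied. Tmem231, a transmembrane protein of the MKS complex, had the highest level of the 10 promoters in 24 of 26 libraries. Cc2d2a, a large scaffold protein with a C2 domain, had the lowest in 26 of 26. Among all promoters of the same library, Tmem231 ranked between percentiles 81.8 and 99.3 with a median of 92.3. Cc2d2a ranked between percentiles 19.6 and 33.8. The other 8 lay in between, from percentile 52.7 to 88.1. The intervals are equally long, but their GC content (47.5% to 65.75%) and repeat content differed, and the reads were not corrected for the sequence preference of Tn5. The part of these in the order of the levels was not tested.

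In untreated JmjC cells Tmem231 stood at 308 ± 38.1 calibrated reads (SD, n = 3). The next was B9d1 at 158 ± 33.4, and the ranges of the 2 did not overlap. From B9d1 down to Tmem237 at 111 ± 23.0, each promoter overlapped its neighbour in the order. Cc2d2a was at 16.7 ± 5.21, below the range of Tmem237. In the 3 CXXC lines the range of Tmem231 overlapped that of B9d1, and the ranges separated between Tmem237 and Cc2d2a in every line. The other neighbours with separate ranges in the CXXC lines were B9d2 and Tmem237 in Kdm2a/b-CXXC cells, at 97.2 ± 6.80 and 75.9 ± 5.46 (n = 4). B9d1 was second in the untreated cells of all 4 lines, and Tmem237 ninth.

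The spread between libraries exceeded counting error for most promoters. The SD of calibrated reads was larger than counting alone would give in 15 of 20 groups in the JmjC line, 14 of 20 in Kdm2a/b-CXXC, 16 of 20 in Kdm2a-CXXC and 20 of 20 in Kdm2b-CXXC. The median ratio of the SDs was 1.50, 1.80, 1.75 and 4.32 in these lines.

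**Figure D2:**
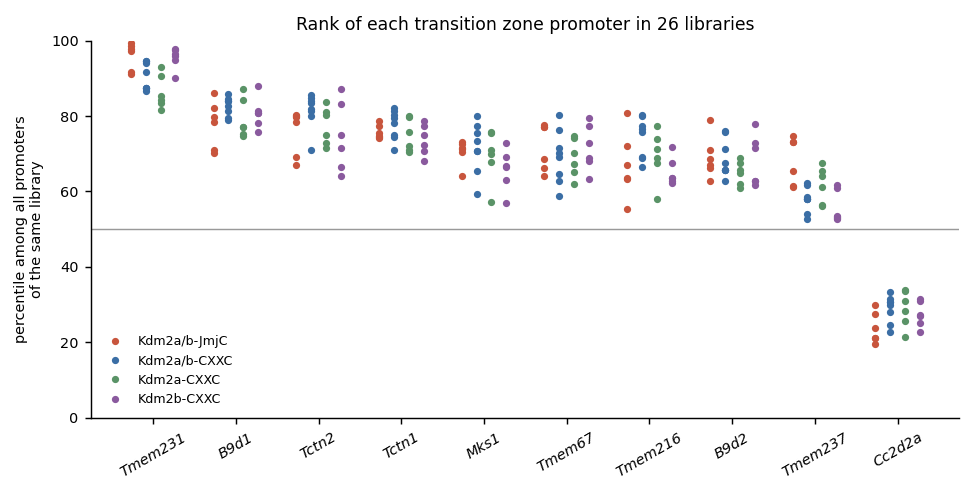
Percentile of each transition zone promoter among all promoters of the same library (y axis) in 26 libraries, coloured by line and ordered by median. Tmem231 lies above percentile 81 throughout, Cc2d2a below 34, and the other 8 between 52.7 and 88.1.

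Tmem231 fell in the JmjC line after tamoxifen, and this is the value that chose the set. Untreated libraries had 339.9, 318 and 266 calibrated reads and treated ones 194, 232 and 182. Every treated library was below every untreated one, as was the case at 23.2% of all promoters of the line. The means of Tmem231 were 308 ± 38.1 and 203 ± 25.9 (SD, n = 3 each), a log2 fold change of -0.60 (SE 0.13). Among all promoters of that line 13 of 17174, or 0.0757%, passed an adjusted p under 0.05 with a fold change over 1.4 in limma. Since the set was built on this fall, no test of Tmem231 is given for the line. In bulk libraries a promoter open in fewer cells and one less open in each cell cannot be told apart.

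The fall of Tmem231 was measured against a shift of the whole line. The median log2 fold change over all 17174 promoters was -0.21 on the calibrated scale, and 83.4% of promoters were lower. Relative to that median, Tmem231 fell by 0.39. Under TMM scaling, which sets most mouse promoters to no change, its log2 fold change was -0.39 and its groups overlapped. On that scale, in scaled counts per M promoter reads (CPM), untreated libraries had 190.2, 171 and 151 and treated ones 116, 158 and 118. No promoter of the line passed both thresholds under TMM scaling, with 970 of 17174, or 5.65%, at an unadjusted p under 0.05. Of the promoters tested, 4.75% had a lower calibrated fold change than Tmem231. The log2 fold change ran from -0.70 to -0.53 when each library was left out in turn.

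Tmem231 lies on chromosome 8, which gave more reads in the JmjC line than elsewhere. In untreated cells the 862 chromosome 8 promoters tested in every line stood at a median of 0.36 log2 units above the other 3 lines, and Tmem231 stood 0.50 above. Within the JmjC line the 964 tested promoters of chromosome 8 had a median log2 fold change of -0.23 after tamoxifen, close to that of the line. The 14 tested promoters within 500 kb of Tmem231 ranged from -0.45 to 0.28, with a median of -0.23, and 0 of them passed both thresholds. The part of chromosome dosage in the level of Tmem231 was not tested. Chromosome 1, which holds Tmem237, was similarly raised in that line, by a median of 0.38.

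The other 9 promoters in the JmjC line were all lower after tamoxifen on the calibrated scale, by 0.01 to 0.34 in log2 fold change, where a fold of 1.4 corresponds to 0.49. The promoter next to Tmem231 was B9d1, at 158 ± 33.4 and 124 ± 16.3 calibrated reads, a log2 fold change of -0.34. The median over the 10 was -0.23, beside -0.21 for all promoters. Under TMM scaling 5 were lower and 5 higher, with a median of -0.02. B9d2 and Tmem237 were the least changed on the calibrated scale, both at -0.01, and the highest under TMM scaling, both at 0.20.

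Tctn1, a tectonic protein, was the other promoter in that line whose groups did not overlap. It had 143, 141 and 137 calibrated reads untreated and 129, 123 and 118 treated. Treated libraries lay below untreated ones at 23.2% of all promoters in the line. Under TMM scaling the Tctn1 groups overlapped and its log2 fold change was 0.02. Its paralogue Tctn2 had 151, 157 and 114 untreated and 111, 128 and 135 treated, and these overlapped.

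**Figure D3:**
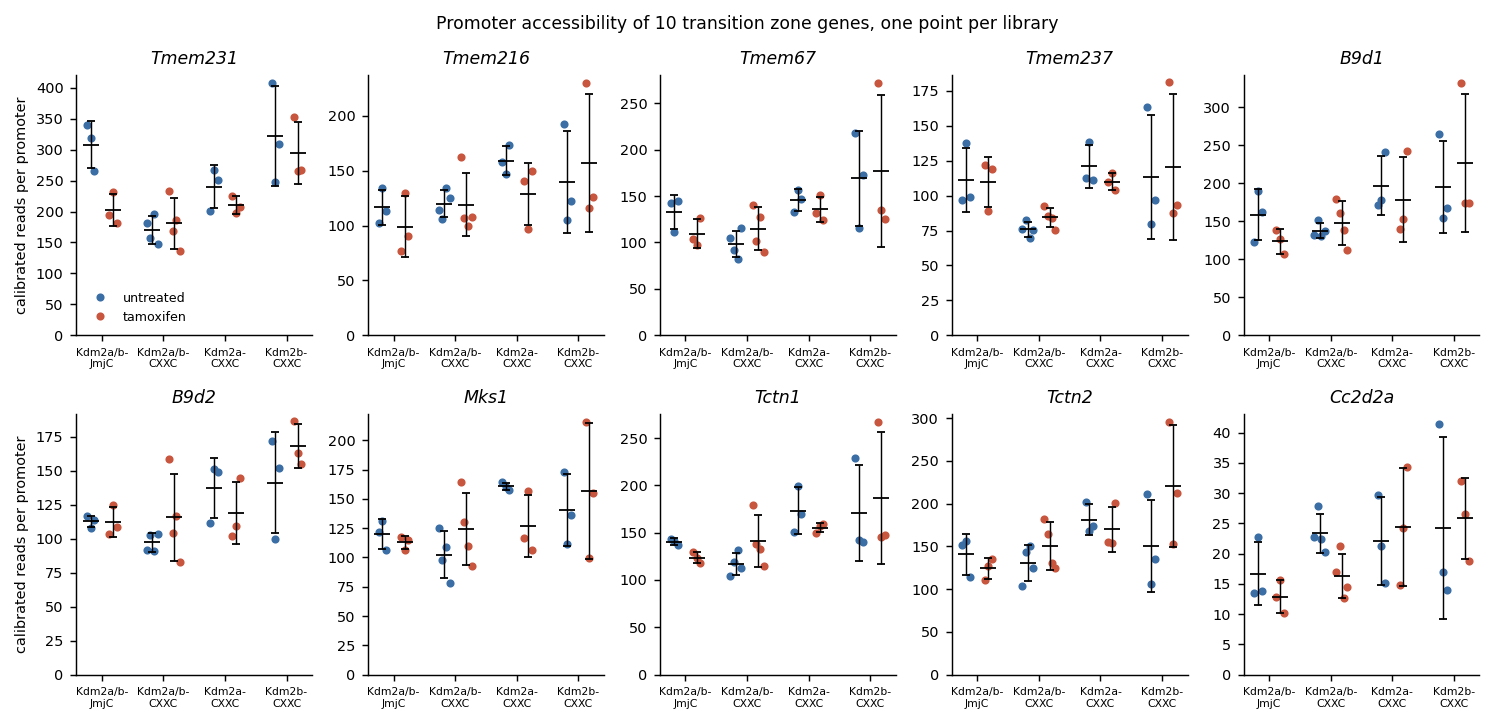
Calibrated reads per promoter (y axis, from 0, scale differs by gene) in each library, by line, untreated in blue and tamoxifen in red, with the mean and SD in black. Tmem231 in the JmjC line separates 3 untreated libraries (266 and above) from 3 treated ones (232 and below), and replicate 1 is the highest point in every Kdm2b-CXXC group.

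In the 3 CXXC lines, whose values had no part in choosing the set, no call was made for any of the 10 promoters. In each line 0 of 10 passed both limma thresholds, as did 0% of all promoters tested. At an unadjusted p under 0.05 there were 0 of 10 in each line too. Over all promoters 4.65% of 16413 reached it in Kdm2a/b-CXXC cells, 8.39% of 17727 in Kdm2a-CXXC cells and 0.669% of 17930 in Kdm2b-CXXC cells. The tests on recovered reads with edgeR and DESeq2 called 0 of the 10 as well. All 10 passed the filter on low counts in every line.

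For Tmem231 itself the libraries overlapped in all 3. In Kdm2a/b-CXXC cells untreated libraries had 182, 157, 197 and 147 calibrated reads and treated ones 233, 168, 187 and 136. That gave a log2 fold change of 0.06, with a 95% interval of -0.29 to 0.41 and an adjusted p of 0.996 in limma. In Kdm2a-CXXC cells it had 202, 268 and 251 untreated and 226, 197 and 208 treated. That gave -0.18 with an interval of -0.54 to 0.17 (adjusted p = 0.706 in limma), beside a median of -0.18 over all promoters of the line.

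In Kdm2b-CXXC cells Tmem231 had 408, 248 and 309 untreated and 352, 265 and 267 treated. Its log2 fold change was -0.11, with an interval of -0.83 to 0.61, the widest of the 3 CXXC lines. Whether Tmem231 changed differently between lines was not tested, since it had been picked for its change in 1 of them.

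TMM scaling narrowed these intervals, most of all in the Kdm2b-CXXC line. Tmem231 then had a log2 fold change of -0.02 in Kdm2a/b-CXXC (interval -0.23 to 0.19), where its sign turned, and 0.00 in Kdm2a-CXXC (-0.24 to 0.23). In Kdm2b-CXXC cells it was -0.21 (-0.40 to -0.02), with an unadjusted p of 0.0314 and an adjusted p of 0.604 in limma. There the 3 treated libraries, at 111, 135 and 127 CPM, lay below the untreated ones at 139.7, 143 and 147. Such a separation downwards was seen at 6.27% of all promoters of the line.

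**Figure D4:**
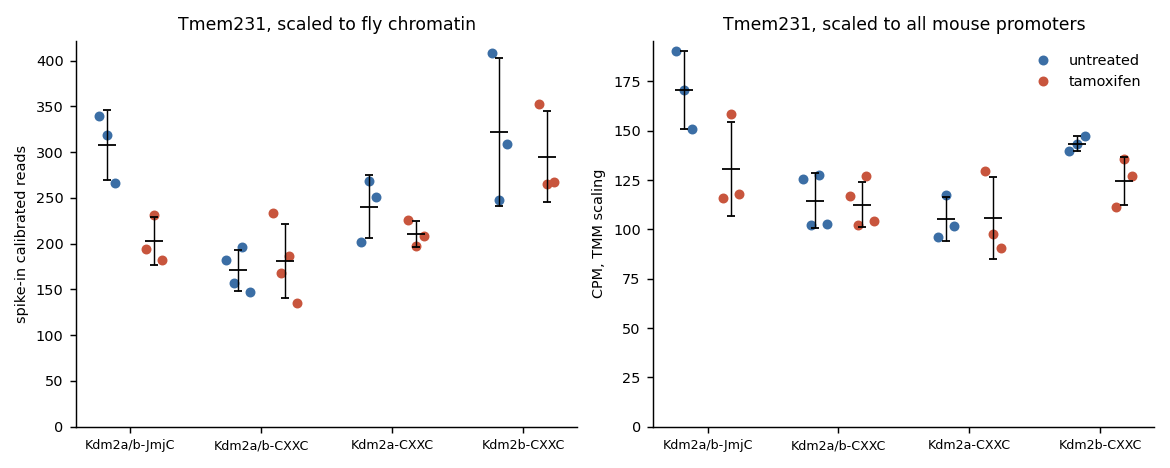
Tmem231 in each library as spike-in calibrated reads (left) and as CPM with TMM scaling (right), untreated in blue and tamoxifen in red, with the mean and SD in black. Treated JmjC libraries lie below all untreated ones on the left only (at most 232 against at least 266), and on the right 1 treated library at 158 lies above an untreated one at 151.

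Among the other transmembrane proteins, Tmem216, Tmem67 (meckelin) and Tmem237 differed by less than their intervals in the CXXC lines. Tmem216 was at 120 ± 12.3 untreated and 119 ± 28.9 treated in Kdm2a/b-CXXC (SD, n = 4). It was at 159 ± 13.2 and 129 ± 28.3 in Kdm2a-CXXC (n = 3), a log2 fold change of -0.32 with an interval of -0.71 to 0.06. Tmem67 was at 98.5 ± 14.4 and 115 ± 23.2 in Kdm2a/b-CXXC, a log2 fold change of 0.21 (-0.17 to 0.59). Tmem237, the lowest of the CpG-rich promoters, was at 75.9 ± 5.46 and 84.4 ± 6.96 in that line. Its log2 fold changes were between -0.13 and 0.15 in all 4 lines.

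B9d1, B9d2 and Mks1 share the B9 domain and form a complex. B9d1 was at 138 ± 9.57 untreated and 148 ± 28.7 treated in Kdm2a/b-CXXC cells, and at 197 ± 38.8 and 178 ± 56.0 in Kdm2a-CXXC cells. B9d2 was at 97.2 ± 6.80 and 116 ± 32.0 in the first and at 137 ± 22.2 and 119 ± 22.8 in the second. Neither differed beyond the spread between libraries.

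Mks1 in Kdm2a-CXXC cells had the smallest p-value of the set in the CXXC lines on the calibrated scale. Its untreated libraries had 164, 159.9 and 158 reads and its treated ones 117, 157 and 107. The groups did not overlap, with 157 against 158 at the nearest libraries. Of all promoters of the line 13.4% showed such a separation downwards. The log2 fold change was -0.36 (-0.75 to 0.03), with an unadjusted p of 0.068 and an adjusted p of 0.596 in limma. Under TMM scaling it was -0.18 with an adjusted p of 0.898, and the groups overlapped. In Kdm2a/b-CXXC cells the same promoter was higher after tamoxifen, at 0.26 (-0.11 to 0.64).

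Tctn1 in Kdm2a/b-CXXC cells was at 117 ± 12.0 untreated and 141 ± 27.1 treated, a log2 fold change of 0.26 (-0.11 to 0.63). In Kdm2a-CXXC cells it had 151, 199 and 169 untreated and 149.9, 157 and 159 treated. Tctn2 had the largest rise of the set, in Kdm2b-CXXC cells. It had 211, 106 and 135 calibrated reads untreated and 295, 153 and 213 treated, which overlapped. The log2 fold change was 0.56 (-0.17 to 1.28), with an adjusted p of 1.00 in limma.

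With TMM scaling the spread of Tctn2 shrank. Untreated Kdm2b-CXXC libraries had 72.3, 61.1 and 64.6 CPM and treated ones 93.3, 78.2 and 101.5, so that the groups separated, as 6.16% of promoters did upwards. Under TMM the log2 fold change was 0.46 (0.21 to 0.70), with an unadjusted p of 0.000317 and an adjusted p of 0.197 in limma. With Tmem231, it made 2 of 10 promoters at an unadjusted p under 0.05 under that scaling, against 7.74% of all promoters of the line. The count was 0 of 10 in the other CXXC lines, against 9.72% of promoters for Kdm2a/b-CXXC and 6.18% for Kdm2a-CXXC.

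Cc2d2a has few reads, 10 to 36 per library before calibration, and its estimates are the least precise. In Kdm2a/b-CXXC cells it had 22.7, 27.9, 22.5 and 20.3 calibrated reads untreated and 16.9, 21.2, 12.7 and 14.4 treated. Only the highest treated library reached into the untreated range. The log2 fold change was -0.51 (-1.16 to 0.15), opposite in sign to the 0.09 median of the line, with an adjusted p of 0.996 in limma. Under TMM scaling the groups separated (2.6% of all promoters did so downwards) and the log2 fold change was -0.59 (-1.19 to 0.01, unadjusted p = 0.054, adjusted p = 0.523 in limma).

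In Kdm2a-CXXC cells Cc2d2a had 29.6, 21.3 and 15.2 untreated and 14.8, 24.2 and 34.3 treated, and it was the 1 of 10 with a positive log2 fold change there, 0.11 (-0.59 to 0.82). In Kdm2b-CXXC cells it had 41.5, 17.0 and 14.0 untreated and 32.0, 26.6 and 18.8 treated. Both comparisons overlapped widely.

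The medians of the set lay near those of each line. In Kdm2a/b-CXXC cells the median log2 fold change over the 10 was 0.17, beside 0.09 over all promoters, and 0.09 under TMM scaling. For Kdm2a-CXXC the values were -0.16, -0.18 and 0.02, and for Kdm2b-CXXC 0.13, 0.10 and 0.03. In Kdm2a/b-CXXC 8 of 10 were higher and in Kdm2a-CXXC 9 of 10 lower on the calibrated scale, where 32.0% and 81.2% of all promoters were lower. Under TMM scaling 6 of 10 were higher in both lines. In Kdm2b-CXXC 9 of 10 were higher, where 28.9% of all promoters were lower, and 7 of 10 under TMM scaling. The Kdm2b-CXXC median was -0.15 without treated replicate 1, -0.02 without untreated replicate 2 and 0.39 without untreated replicate 1.

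**Figure D5:**
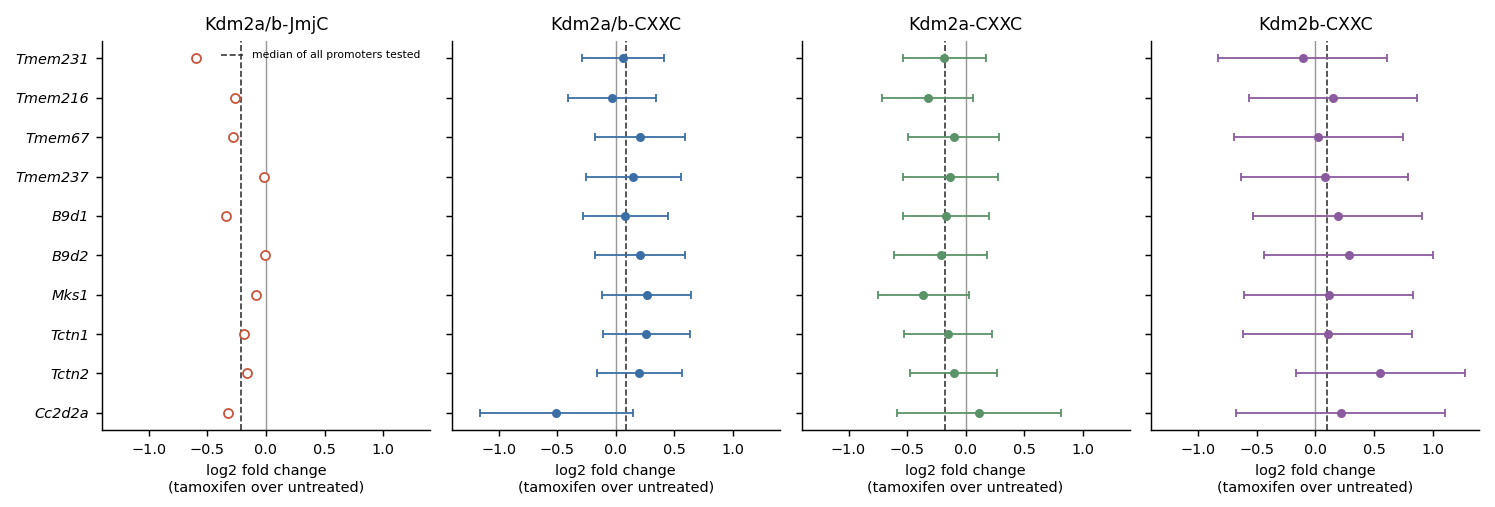
Log2 fold change of calibrated reads, tamoxifen over untreated (x axis), for each transition zone promoter in the 4 lines, with 95% limma intervals in the CXXC lines, and the median of all promoters tested as a dashed line. JmjC values (open circles) are shown without intervals since that line chose the set. Intervals of the CXXC lines all include 0, and most points lie near the dashed line.

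Correlations within the set were weak from library to library. On TMM-scaled log2 values centred within each line, the 45 pairs had a median Pearson r of 0.09 over 26 libraries, ranging from -0.42 to 0.37. The centred values share library composition and carry the treatment difference, so these are descriptions only. The 3 promoters most like Tmem231 among 16030 tested in all lines were Gapvd1 (r = 0.820), Bhlhe41 (r = 0.730) and Fam178b (r = 0.717), on chromosomes 2, 6 and 1. None is a transition zone gene. One predicted non-coding RNA, B9d1os, starts inside the B9d1 interval on the opposite strand (exon chr11:61504385-61505086), so the reads there cannot be assigned to either start. Among curated RefSeq genes 0 others started within 1000 bases of any of the 10 intervals, whereas 12.6% of 20407 promoters had a head-to-head start within that distance.

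The wider ciliary machinery gave no call either. Across 79 promoters of 8 lists, 0 passed both limma thresholds in any line. Leaving out 1 library changed this for 3 promoters, singled out here after their values were known. Ttc21b (-0.62) and Smo (-0.65) passed in the JmjC line without treated replicate 1, and Hhip (-1.17) in Kdm2a-CXXC without treated replicate 3. With edgeR and DESeq2, which called 114 and 12 promoters of all kinds in the JmjC line, the number was also 0. In the JmjC line 20 of 76 tested were lower and 0 higher at an unadjusted p under 0.05, against 20.6% of all promoters in either direction. Their median log2 fold change was -0.22 there. It was 0.14 for Kdm2a/b-CXXC, with 3 of 73 higher at an unadjusted p under 0.05. For Kdm2a-CXXC it was -0.18, with 6 lower and 1 higher of 77, and for Kdm2b-CXXC 0.12, with 1 of 77 higher.

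Other transition zone proteins, such as Cep290, Rpgrip1l and the NPHP module, had a median of -0.20 in the JmjC line, from -0.59 at Rpgr (adjusted p = 0.215 in limma) to 0.24 at Cep290. In Kdm2b-CXXC cells they ran from -0.76 at Rpgrip1 to 1.76 at Ahi1 (adjusted p = 1.00 for both in limma), where Ahi1 had a mean of only 5.17 calibrated reads untreated. In the inversin compartment next to the zone the 4 promoters ranged in the JmjC line from -0.34 at Anks6 to -0.17 at Nek8. IFT-A, which carries cargo back from the tip, held the smallest adjusted p of the 79 in the JmjC line. It was that of Ttc21b, at -0.54 (adjusted p = 0.0734 in limma). IFT-B, which carries cargo outward, ran in the JmjC line from -0.35 at Ift52 to 0.23 at Ift74. The BBSome, an adaptor for membrane cargo, ran in the same line from -0.42 at Ttc8 to 0.10 at Bbs1. Ciliary transcription factors ran in the JmjC line from -0.51 at one of several Rfx4 promoters to 0.01 at another Rfx4 promoter.

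Hedgehog pathway promoters, whose products pass the transition zone, included low-count promoters with wide estimates. Kif7, a kinesin-like regulator at the ciliary tip, was at -0.86 in the JmjC line and 1.23 in Kdm2a-CXXC (adjusted p = 0.353 and 0.581 in limma). Its promoter ranked at percentile 17.3, where few reads were counted. Smo, the signal transducer, was the highest of the pathway in Kdm2a/b-CXXC at 0.48 (adjusted p = 0.996 in limma). Promoters that share the X-box pair of Mks1 and Tctn1 had medians near those of all promoters. In the JmjC line 176 of them had a median log2 fold change of -0.20, with 0 past both thresholds. The medians were 0.11 for Kdm2a/b-CXXC, -0.16 for Kdm2a-CXXC and 0.09 for Kdm2b-CXXC, again with 0 past both.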

How the data were processed

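Calibrated ATAC-seq covered 26 libraries of 4 mESC lines; another 26 samples of input genomic DNA were not analysed here. The authors aligned reads to concatenated mm10 and dm6 genomes with Bowtie2, removed reads mapped more than once, duplicates (SAMtools) and blacklisted regions, and counted mouse reads over 400-base promoter intervals. Each deposited library column is a signal, mouse reads divided by a spike-in size factor (0.718 to 1.41). The tables also hold the authors' DESeq2 results (mean signal, log2 fold changes, standard errors, Wald statistics and p-values), which were not used. Whole reads were recovered for 100% of values (within 0.01) and served for filtering, TMM scaling and the count tests.

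Groups came from the sample labels. Each line was fitted alone with limma 3.58.1 (mean-variance trend, two-sided) on the log2 of calibrated reads plus 1. Promoters were first filtered with edgeR's filterByExpr. The fits used Benjamini-Hochberg adjustment over all promoters, and a promoter was called when this p fell under 0.05 and it changed by more than 1.4 times. A fold change thus carries the added 1 and understates that of a low promoter. Alternatives were TMM and median-of-ratios scaling, edgeR 4.0.16 quasi-likelihood, DESeq2 1.42.0, no filter, a pseudocount of 5, a replicate block and leaving out each library. On simulated counts the fits were tested for recovery of planted changes. Intervals are 95%. The replicates are biological per the study's methods. Duplicates were removed by position, without molecular identifiers, so counting error is a lower limit of the spread.

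The 10 genes, the ciliary lists and the tests were chosen with earlier results of these data known. Named genes were the 10, any neighbouring starts, from each wider list the promoters past both thresholds or else the lowest and highest (examples are given), and the 3 most like Tmem231. Sequences were read from GRCm38.p6. Missing from the tables among listed genes were Tmem17, Bbs9, Ttc30a1, Ttc30a2, Ttc30b, Gpr161, Krt14 and Hbb-b1.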

Additional observations from a re-analysis of the deposited data

Results flagged for a closer look

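Groups of 4 libraries were screened with Dixon's test for a library far from the others, over the 10 promoters in untreated and treated Kdm2a/b-CXXC cells. Of 20 groups 1 was picked out, and chance picks about 1 in 20. Tmem216 in tamoxifen-treated Kdm2a/b-CXXC cells had 162 calibrated reads in replicate 1, against 99.8 to 108 in the other 3 libraries, a gap of 0.875 of the range, above Dixon's critical value at the 95% level. The same library had the highest value of its group for 9 of the 10 promoters, and its calibrated total was 2.04 M against 1.33 to 1.68 M in the other 3. With TMM scaling the 4 treated values of Tmem216 were 81.3, 65.3, 67.9 and 82.7 CPM. No promoter of the set moved fully one way in one line and fully the other way in another.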

How the results depend on the processing

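Under every alternative 0 of the 10 promoters passed both thresholds in the CXXC lines. Over all promoters the 13 calls in the JmjC line became 0 with TMM scaling, 0 with median-of-ratios scaling, 0 without a filter, 71 with a pseudocount of 5, 114 with edgeR and 12 with DESeq2. Against 0 in Kdm2a/b-CXXC and 0 in Kdm2b-CXXC, both scalings gave 17 and 1. Leaving out each library gave 0 to 607 calls in the JmjC line (0 without untreated replicate 1 or 2, 3 without treated replicate 3, 59 without untreated replicate 3, 607 without treated replicate 1), 0 to 8 in Kdm2a/b-CXXC (5 without treated replicate 1, 8 without treated replicate 4) and 0 to 43 in Kdm2a-CXXC (43 without treated replicate 3). The cause of these moves was not tested.

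Same-numbered treated and untreated libraries correlated at 0.073 or less across promoters, on values centred within each group. A shift shared by all promoters of a library drops out of this correlation, so it cannot decide whether equal numbers are pairs. The main fits did not use the numbers as pairs. A replicate block gave 62 calls in the JmjC line, 188 in Kdm2a-CXXC and 5 in Kdm2b-CXXC, left Kdm2a/b-CXXC at 0 and left 0 of the 10 called in the CXXC lines. With the block, promoters at an unadjusted limma p under 0.05 went from 120 to 1785 in Kdm2b-CXXC and from 1488 to 3895 in Kdm2a-CXXC. They went from 3537 to 3544 in the JmjC line and from 764 to 733 in Kdm2a/b-CXXC. Each JmjC library correlated best with its own number.

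TMM and median-of-ratios scaling moved the median log2 fold change over the 10 from -0.23 to -0.017 and -0.015 in the JmjC line, and from -0.16 to 0.021 and 0.023 in Kdm2a-CXXC. Over the wider ciliary promoters the medians became -0.011 and -0.0090 in the JmjC line and -0.00025 and 0.0016 in Kdm2a-CXXC. Leaving out each library gave medians over the 10 from -0.25 to -0.13 in the JmjC line (-0.13 without untreated replicate 2) and from -0.25 to -0.12 in Kdm2a-CXXC. The wider ciliary promoters called were 0 to 2 in the JmjC line (Ttc21b and Smo, without treated replicate 1) and 0 to 1 in Kdm2a-CXXC (Hhip, without treated replicate 3), and 1 in Kdm2a-CXXC with the replicate block (Hhip).

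Directions turned for small changes. With TMM and median-of-ratios scaling, in this order, the log2 fold changes in Kdm2a/b-CXXC were -0.022 and -0.021 for Tmem231 and -0.0043 and -0.0038 for B9d1. In Kdm2a-CXXC they were 0.076 and 0.078 for Tmem67, 0.049 and 0.050 for Tmem237, 0.012 and 0.014 for B9d1, 0.029 and 0.031 for Tctn1 and 0.077 and 0.079 for Tctn2. In Kdm2b-CXXC they were -0.077 and -0.078 for Tmem67 and -0.020 and -0.022 for Tmem237. Leaving out each library gave ranges across 0 in Kdm2a/b-CXXC for Tmem231 (-0.066 to 0.19), Tmem216 (-0.19 to 0.045) and B9d1 (-0.017 to 0.21), and in Kdm2a-CXXC for Cc2d2a (-0.16 to 0.42). In Kdm2b-CXXC the ranges were -0.28 to 0.078 for Tmem231, -0.16 to 0.40 for Tmem216, -0.33 to 0.23 for Tmem67, -0.25 to 0.38 for Tmem237, -0.12 to 0.43 for B9d1, -0.15 to 0.40 for Mks1, -0.18 to 0.34 for Tctn1 and -0.076 to 0.67 for Cc2d2a. Depth limits Cc2d2a most, at 10 to 36 reads, and the spread between libraries limits the Kdm2b-CXXC line most.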
